A study of Rattus norvegicus with 18 samples.

Results

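A 3D-printed polymer scaffold carrying amorphous calcium phosphate chitosan nanoparticles (ACPC-NP) was compared with the 2 other scaffolds of the study in bone of the rat radius, 6 weeks after implantation. The ACPC-NP libraries were the 3 whose labels give that scaffold and week. They were set against the mean of 2 groups of 3 libraries at week 6, one from the bare scaffold (PCL) and one from the same polymer with calcium phosphate microparticles (CaP). These are 9 of the 18 libraries of the series, the rest being the same 3 scaffolds at week 2. Every animal is labelled wild type (WT) and carried a radius defect too large to close unaided, so no group lacks a scaffold or an injury. The labels used here give no strain, sex or age, nor how many rats stand behind the 3 libraries of a group. The p-values below therefore measure the spread between libraries, which may be technical. The RNA was not taken from bone alone. Marrow was treated with red blood cell lysis buffer and digested with collagenase, dispase and DNase, bone was minced and digested with another collagenase, and both cell suspensions were pooled before polyA RNA was sequenced. The question in the study's design text is how the ACPC-NP scaffold compares with the others in promoting bone formation.

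Bone marrow makes red cells, granulocytes, platelets and B cells side by side, and the stroma around them supplies signals that set how much of each is made. Red cell precursors switch on haemoglobin, the haem synthesis pathway and a set of membrane proteins together under the transcription factors GATA1, TAL1 and KLF1. Repair of a bone defect runs from inflammation, in which NF-kB and immediate early genes are prominent, to cartilage and bone formation under bone morphogenetic protein, transforming growth factor beta (TGF-beta) and Wnt signals.

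The 9 libraries held 18880604 to 27186587 counts each, and 11814 genes were tested. Marrow and bone markers were both present. Mpo, the myeloperoxidase of granulocyte precursors, stood at 2129, 1783 and 1125 CPM around ACPC-NP, 740.2, 1202 and 1176 around CaP and 2345, 590.0 and 854 around PCL, where CPM is a gene's count per 1000000 counts of its library. Col1a1, the main collagen chain of bone, stood at 4373, 5617 and 7483 CPM around ACPC-NP, 6561, 6660 and 13580 around CaP and 8338, 9855 and 6722 around PCL. The list of skeletal muscle genes was uneven, with a summed level of 887 CPM in ACPC-NP replicate 3 against 85.7 to 293.5 CPM in the 8 other libraries. On a principal component analysis of the 9 libraries, ACPC-NP replicates 1 and 2 lay together at 40 and 38.8 on the first component (32.5% of the variance), and replicate 3 lay at the other end, at -33. The 3 ACPC-NP libraries are thus not a tight group on the main axis of variation. PCL replicate 1 also differed from PCL replicates 2 and 3. List medians below that turn sign or move by over 1.5 times without a single library are given with the name of at least 1 such library.

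**Figure D1:**
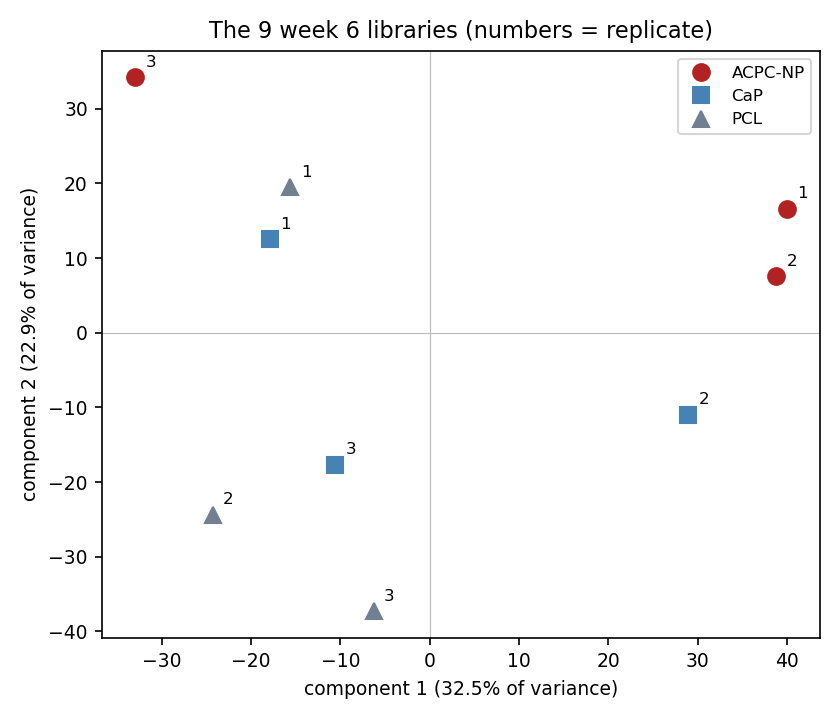
First and second principal components of the 9 week 6 libraries (share of variance on each axis), with points for libraries and numbers for replicates. ACPC-NP replicates 1 and 2 lie at 40 and 38.8 on component 1 and replicate 3 at -33.

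No gene passed the test of ACPC-NP against the mean of the other scaffolds. At an adjusted p under 0.05, edgeR's quasi-likelihood test over all 18 libraries called 0 of 11814 genes (0%), with a smallest adjusted p of 0.105, and 2421 genes had an unadjusted p under 0.05. DESeq2 called 662 genes and limma voom with library quality weights 3462. The median log2 difference over all genes was 0.00 and 50.3% of genes were above 0. For 847 genes (7.17%) all 3 ACPC-NP libraries were above all 6 others, and for 890 genes (7.53%) all 3 were below. Such genes are called separated here, and these shares are the background for every list below. When the spread was estimated from the 9 week 6 libraries alone, an alternative planned with this comparison, 139 genes (1.2% of 11561) were called higher around ACPC-NP and 178 (1.54%) lower. That count fell to 0 when any one CaP or ACPC-NP library was left out, and was 2540, 10 and 1 without PCL replicate 1, 2 and 3. The 18-library count was 1335 without PCL replicate 1, 1 without CaP replicate 3 and 0 without any other single week 6 library. A gene said below to pass the week 6 test passed in that fit and not in the 18-library test, and words for direction otherwise describe values that did not pass. Log2 differences and their SE come from the 18-library fit throughout.

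The 5 genes with the smallest p among those higher around ACPC-NP were March2, Tusc2, Lepr, Cdr2 and F2rl1, each with an adjusted p of 0.105. March2, a membrane-bound ubiquitin ligase, stood at 324, 335 and 297 CPM around ACPC-NP, 174, 187 and 219 around CaP and 204, 148 and 178 around PCL, a log2 difference of 0.79 ± 0.14 (SE). Lepr, the leptin receptor that marks the stromal cells around marrow vessels, stood at 4.19, 4.78 and 4.89 CPM around ACPC-NP, 1.32, 0.871 and 1.61 around CaP and 2.53, 0.95 and 0.679 around PCL. Its difference of 1.80 ± 0.34 was the largest of the 5, and all 3 ACPC-NP libraries were above all 6 others, at low levels throughout. F2rl1, a receptor cut open by proteases, differed by 1.04 ± 0.20, Cdr2, a cytoplasmic protein known as a target of autoantibodies, by 0.92 ± 0.17, and Tusc2, a mitochondrial protein, by 0.62 ± 0.11. Among the genes with the smallest p in the lower direction were Wnt10b, Hivep3, Spata5 and Mapk8, again at an adjusted p of 0.105. Wnt10b, a Wnt ligand that drives bone formation in mice, stood at 4.23, 2.71 and 2.86 CPM around ACPC-NP, 12.5, 7.71 and 8.63 around CaP and 7.92, 11.7 and 19.5 around PCL, a log2 difference of -1.77 ± 0.30. Its 3 ACPC-NP values lay below all 6 others. Hivep3 differed by -1.32 ± 0.24, Spata5, an ATPase of ribosome assembly, by -0.50 ± 0.10, and Mapk8, the kinase JNK1, by -0.45 ± 0.09. All the genes named here were separated.

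Red cell genes had higher values around ACPC-NP than around either other scaffold. Of 35 tested genes in 3 overlapping lists of the red cell lineage, 35 had a log2 difference above 0, from 0.22 to 1.01, and 32 were separated higher, against 7.17% of all genes. None passed the main test, where their adjusted p ran from 0.105 to 0.279, and 16 of the 35 passed the week 6 test, against 1.2% of all genes. Since these are bulk libraries, more cells of a type and more RNA per cell cannot be told apart. The lysis of red cells during preparation is part of every library's protocol, and whether it worked alike in each was not tested. The erythroid list was drawn up with earlier results known and the lists of haem enzymes and membrane genes after these values were seen, so their counts are descriptions.

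Haemoglobin itself was high in all 9 libraries. Hbb, a beta globin, stood at 47760, 59100 and 43700 CPM around ACPC-NP, 21550, 27970 and 30600 around CaP and 30490, 19140 and 31700 around PCL. The lowest ACPC-NP library was above the highest other one, and Hbb took 4.45% to 5.66% of all counts around ACPC-NP against 2.13% to 3.26% in the other 6. The log2 difference was 0.90 ± 0.25 with an adjusted p of 0.111, and of 0.0599 in the week 6 test, which it did not pass. Rat beta globins are a family of near-identical genes, so reads may be shared between copies. Ahsp, the chaperone of free alpha globin, differed by 0.66 ± 0.23 and Hemgn, a nuclear protein of red cell precursors, by 0.56 ± 0.23, both separated.

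All 8 enzymes of haem synthesis were separated higher, with a median log2 difference of 0.64, and 6 of the 8 passed the week 6 test. Fech, which puts iron into the ring as the last step, stood at 1046, 1109 and 856 CPM around ACPC-NP, 484, 621 and 730.1 around CaP and 620.3, 434 and 618 around PCL. The log2 difference was 0.78 ± 0.19, and its adjusted p was 0.105 over 18 libraries and 0.0476 in the week 6 test. Alas2, the red cell form of the first and rate-limiting enzyme, stood at 3114, 3852 and 2741 CPM around ACPC-NP, 1445, 1996 and 2210 around CaP and 2257, 1436 and 2125 around PCL. It differed by 0.76 ± 0.21 without passing the week 6 test (adjusted p = 0.0668). The steps between them ranged from 0.51 for Ppox to 0.70 for Alad, with Cpox at 0.68, Uros at 0.59 and Urod at 0.57. Urod did not pass the week 6 test (adjusted p = 0.0574).

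The list of membrane and transport genes of red cells shares members with the erythroid list and was drawn up after these values were seen. Of its genes, 17 of 19 were separated higher and 8 passed the week 6 test, with a median of 0.68. Car1, a carbonic anhydrase, had the largest difference of the 35 genes, at 1.01 ± 0.30. Its levels were 519, 408 and 408 CPM around ACPC-NP, 261, 287 and 270.1 around CaP and 180.4, 144 and 214 around PCL. Car2, the other abundant carbonic anhydrase of red cells and one that osteoclasts also use, differed by 0.76 ± 0.22. Bpgm, which makes the bisphosphoglycerate that loosens oxygen from haemoglobin, differed by 0.83 ± 0.20 and Pklr, the red cell and liver pyruvate kinase, by 0.68 ± 0.29. All 4 passed the week 6 test. Slc4a1, the anion exchanger band 3, stood at 6090, 7060 and 5427 CPM around ACPC-NP, 3233, 4075 and 4621 around CaP and 3905, 2866 and 4228 around PCL. Rhag, the Rh-associated glycoprotein, stood at 231, 264 and 222 CPM around ACPC-NP, 146, 139.9 and 163 around CaP and 135, 109.6 and 138 around PCL. Both were separated, with log2 differences of 0.70 and 0.79, and Rhag passed the week 6 test. The beta spectrin, ankyrin and protein 4.2 genes Sptb, Ank1 and Epb42 differed by 0.73, 0.58 and 0.65. Kel and Tfrc were among the few whose ranges overlapped. Tfrc, the transferrin receptor, which dividing cells of many types also carry, had the smallest difference of all, 0.22 ± 0.11.

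Among regulators, Tal1 stood at 322, 376 and 277 CPM around ACPC-NP, 202, 224 and 214 around CaP and 196, 160.4 and 177 around PCL, with a log2 difference of 0.74 ± 0.26. Epor, the erythropoietin receptor, differed by 0.55 ± 0.23. Klf1, the red cell Krüppel-like factor, differed by 0.51 ± 0.21. All 3 were separated, and Tal1 and Epor passed the week 6 test (adjusted p = 0.0261 and 0.0366). Lmo2, the protein that bridges TAL1 and GATA factors, differed by 0.49 ± 0.14 and was separated. Gata1 had 0 counts in every week 6 library, which is out of proportion to the level of Hbb, so its counts are uncertain. Mecom, Meis1 and Erg, genes of stem and progenitor cells, differed by 0.36, 0.52 and 0.28 with overlapping ranges. Runx1, which acts in progenitors before red cell commitment, lay the other way, separated lower at -0.34 ± 0.17.

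**Figure D2:**
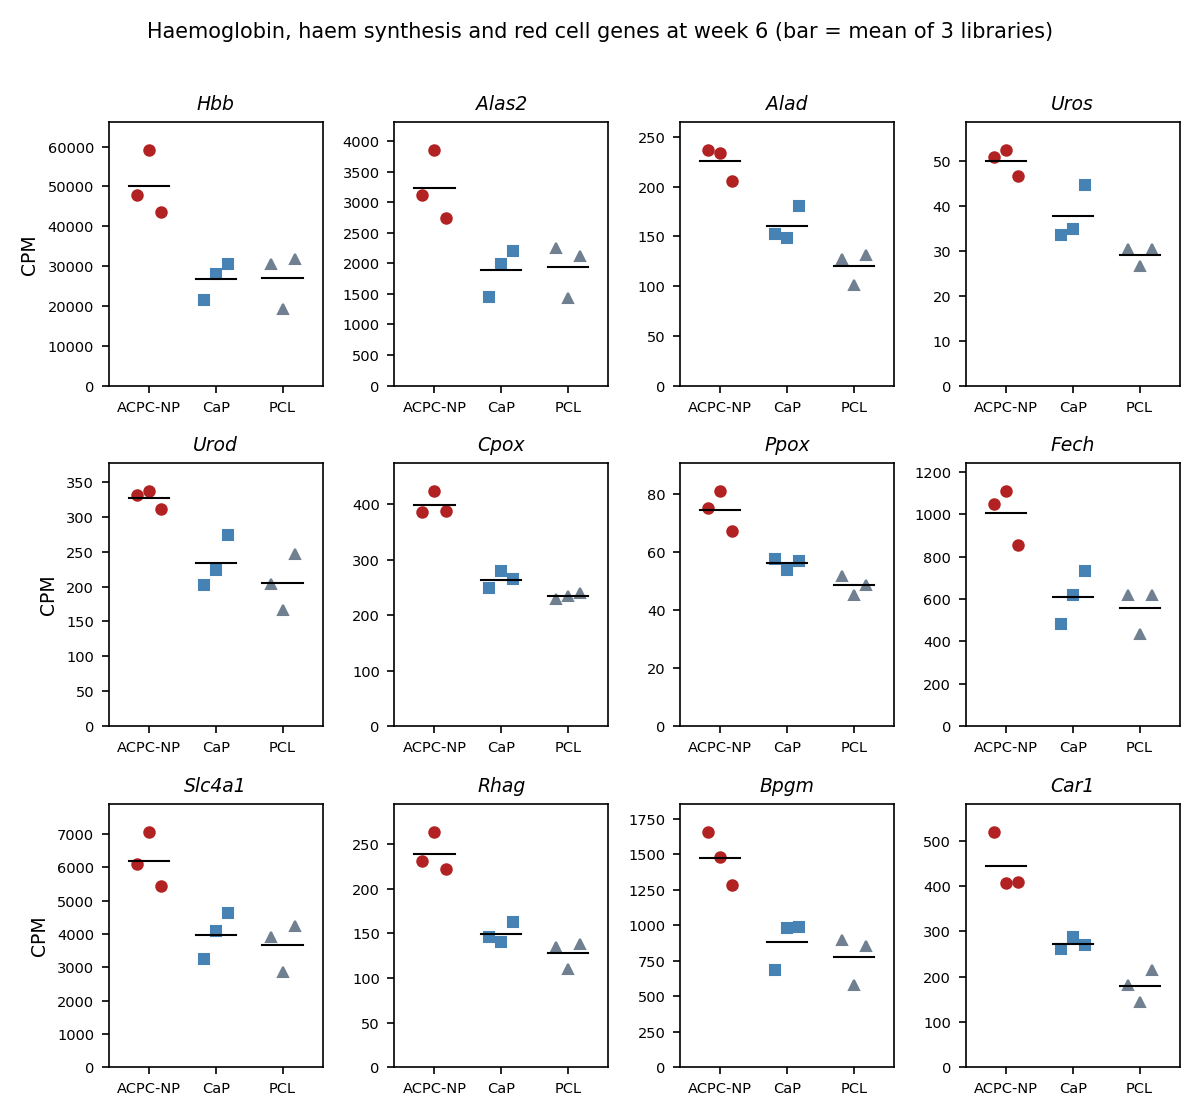
Levels in CPM of 12 red cell genes in each week 6 library (points), with the group mean as a bar. In each panel the 3 ACPC-NP points lie above all 6 others, from 43700 to 59100 CPM for Hbb and from 856 to 1109 CPM for Fech.

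The promoters of 3 of these genes are shown because each holds the letters that GATA factors bind. Fech and Epor also hold the letters that Krüppel-like factors bind. Both kinds of factor control the red cell programme. Each is the 250 bases before the first listed start in RefSeq (build GRCr8), with 2 kinds of match in capitals, on either strand. A GATA match is the run AGATAA, or the same run with T as its first letter. A KLF match is the run CCNCNCCC, where N is any base.
Fech (chr18:60248526-60248775, minus strand): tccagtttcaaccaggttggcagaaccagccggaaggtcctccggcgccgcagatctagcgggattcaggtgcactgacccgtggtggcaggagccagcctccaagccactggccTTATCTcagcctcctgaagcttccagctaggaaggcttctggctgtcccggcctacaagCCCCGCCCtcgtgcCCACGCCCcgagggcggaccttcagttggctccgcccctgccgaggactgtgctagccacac
Epor (chr8:28770323-28770572, minus strand): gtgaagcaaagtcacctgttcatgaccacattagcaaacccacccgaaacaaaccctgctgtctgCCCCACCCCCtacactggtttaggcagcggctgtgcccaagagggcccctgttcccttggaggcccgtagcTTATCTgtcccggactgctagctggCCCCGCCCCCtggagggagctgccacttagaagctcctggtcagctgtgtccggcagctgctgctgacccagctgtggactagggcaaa
Rhag (chr9:27594391-27594640, minus strand): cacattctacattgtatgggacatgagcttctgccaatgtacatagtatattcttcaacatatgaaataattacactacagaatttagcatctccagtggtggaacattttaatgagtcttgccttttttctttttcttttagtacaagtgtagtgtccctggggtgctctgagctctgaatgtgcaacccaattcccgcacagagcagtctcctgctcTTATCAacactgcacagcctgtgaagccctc
Fech holds 1 GATA match and 2 KLF matches, Epor 1 and 4, and Rhag 1 and 0. The KLF matches in Epor overlap each other within its capitalised stretches. Of the 16 erythroid genes tested, 11 had a promoter in the table, and 6 of these (54.5%) held a GATA match, against 16.6% of all 27457 promoters. The haem enzymes held one in 2 of 6 and the membrane genes in 5 of 13 (38.5%). A GATA match was in 2 of 14 promoters of the NF-kB list described below (14.3%) and in 1 of 15 of immediate early genes (6.67%). The KLF pattern was common, in 7 of 11 erythroid promoters (63.6%), 12 of 14 NF-kB promoters (85.7%), 10 of 15 immediate early promoters (66.7%) and 43.8% of all. A match is a description of the letters and no evidence of binding. The lists were made of genes of known programmes, so these shares describe the lists and say nothing of ACPC-NP.

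Iron handling went partly with the red cell genes. Of 16 genes, 3 were separated higher. Slc11a2, the transporter that moves iron out of endosomes, differed by 0.36 ± 0.20 and passed the week 6 test. Cd163, the receptor with which macrophages take up haemoglobin bound to haptoglobin, stood at 94.4, 174 and 81.1 CPM around ACPC-NP, 30.0, 78.1 and 54.9 around CaP and 72.2, 33.5 and 36.5 around PCL. It was separated, with a difference of 1.20 ± 0.38, and did not pass the week 6 test (adjusted p = 0.0989). Slc40a1, the iron exporter, differed by 0.64 ± 0.25, and the ferritin chains Fth1 and Ftl1 by 0.18 and 0.20, all with overlapping ranges. Of 20 genes against oxidative damage, 5 were separated higher, with a median of 0.03, which was 0.14 without PCL replicate 1 and -0.001 without PCL replicate 2. Gpx1 and Cat (catalase), which remove peroxides in red cells among others, differed by 0.69 ± 0.16 and 0.66 ± 0.20, and Gpx1 passed the week 6 test. Gpx4, Gclm and Keap1 lay at 0.41, 0.73 and 0.25. Nqo1, Txnrd1 and Srxn1 lay at -0.01, -0.22 and -0.46 and overlapped.

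Cell cycle genes lay above 0 by small amounts, and most of them overlapped. Of 25 cell cycle genes, 21 were above 0 and 9 separated higher, with a median of 0.18, which was 0.09 without ACPC-NP replicate 1. Plk1, a kinase that drives mitosis, stood at 116, 120.4 and 97 CPM around ACPC-NP, 85.7, 95.1 and 77.8 around CaP and 67.4, 66.8 and 57.2 around PCL. It differed by 0.58 ± 0.23, Ccnb1, a mitotic cyclin, by 0.47 ± 0.22, Cdc20, which triggers chromosome separation, by 0.43 ± 0.21, and Ccnb2 by 0.38 ± 0.19, and these 4 passed the week 6 test. The DNA replication genes Mcm2 to Mcm7 lay between -0.09 and 0.13 and overlapped, as did Mki67 (0.21 ± 0.22). Mitotic genes were divided. Ccna2, Cdk1 and Aurka were separated higher at 0.37, 0.38 and 0.31, while the spindle checkpoint kinases Bub1 and Bub1b, the spindle motor Kif11 and the kinase Aurkb lay at -0.03, 0.01, 0.03 and 0.23 and overlapped. Rrm2 and Ccne1, which act around DNA replication, were separated at 0.24 and 0.36.

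Granulocyte, eosinophil and platelet genes leaned the same way without standing apart. All 17 of 17 neutrophil granule genes were above 0, with a median of 0.52, but 1 was separated. Elane, neutrophil elastase, stood at 379, 342 and 227 CPM around ACPC-NP, 130.5, 208 and 215 around CaP and 425, 128 and 178 around PCL. PCL replicate 1 reached the ACPC-NP range in 16 of the 17 genes. Without that library the median was 0.77 and 7 genes were separated. The separated one, Lcn2, a protein that binds iron-scavenging molecules of bacteria, stood at 1623, 1461 and 1107 CPM around ACPC-NP, 1073, 1013 and 689 around CaP and 123, 391 and 792 around PCL, a difference of 1.14 ± 0.42. In the eosinophil and mast cell list, 15 of 17 were above 0 with a median of 0.42 (0.28 without ACPC-NP replicate 2), from 0.81 for the granule protein Prg2 and 1.58 for the ribonuclease Ear11 to -1.06 for the mast cell tryptase Tpsab1. In the platelet list, 9 of 10 were above 0 with a median of 0.46. Gp1ba, a subunit of the receptor for von Willebrand factor, and Clec1b were separated at 0.85 ± 0.39 and 0.86 ± 0.36. The separation of Gp1ba was close to a tie, between 51 counts in ACPC-NP replicate 3 and 65 in the deeper PCL replicate 1.

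B lineage genes lay lower, with PCL replicate 1 as the main exception among the other scaffolds. All 18 of 18 tested were below 0, with a median of -0.66, and 10 had an unadjusted p under 0.05, against 10.9% of all genes, as against 9.62% in the higher direction. Ebf1, the factor that commits cells to the B lineage, stood at 137, 152 and 167 CPM around ACPC-NP, 234, 301 and 286 around CaP and 164, 340.3 and 372 around PCL. Cd72, a B cell surface inhibitor, stood at 214, 239 and 302 CPM around ACPC-NP, 391, 468 and 523 around CaP and 288, 705 and 719.7 around PCL. In both genes the ACPC-NP values were below 5 of the 6 others and PCL replicate 1 fell within their range. Pax5, which maintains B cell identity, differed by -0.70 ± 0.24 and Rag1, which cuts antigen receptor genes, by -0.86 ± 0.30. Ms4a1 (CD20) differed by only -0.11 ± 0.37. PCL replicate 1 reached the ACPC-NP range in 17 of the 18 genes, CaP replicate 1 in 8 and PCL replicate 3 in 4. The 1 separated gene was RGD1562865, an older symbol of Bach2. Without PCL replicate 1 the median was -0.82 and 8 genes were separated lower. With only that library left out of the main fit, 11 of the 18 had an adjusted p under 0.05. In the same fit 791 of all 11951 genes tested passed as lower. T cell genes had a median of -0.04, which ran from -0.17 without ACPC-NP replicate 3 to 0.12 without ACPC-NP replicate 2, and none was separated.

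Genes of the NF-kB pathway were lower. NF-kB dimers wait in the cytoplasm bound to inhibitors and, once freed by inflammatory signals, switch on cytokines, survival genes and their own inhibitors. All 15 of 15 tested genes were below 0, with a median of -0.61, and 5 were separated lower against 7.53% of all genes. Nfkb2, the precursor of the p52 subunit, stood at 248, 161 and 215 CPM around ACPC-NP, 392, 294 and 425 around CaP and 358, 444 and 504 around PCL. Birc3, an inhibitor of cell death, stood at 154, 98.2 and 144 CPM around ACPC-NP, 249, 195 and 268 around CaP and 215, 277 and 336 around PCL. All 3 ACPC-NP libraries were below the other 6 for both, and both passed the week 6 test, with differences of -0.95 ± 0.42 and -0.95 ± 0.43 and adjusted p of 0.041 and 0.0456. The subunits Nfkb1 and Rela differed by -0.63 ± 0.24 and -0.30 ± 0.19, and the inhibitor Nfkbie by -0.87 ± 0.29, all separated. The inhibitor Nfkbia (-0.55 ± 0.61), the adhesion molecule Icam1 (-0.66 ± 0.50) and the neutrophil chemokine Cxcl1 (-0.88 ± 0.79) had overlapping ranges. CaP replicate 2 was the library that most often reached the ACPC-NP range, in 10 of the 15 genes.

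The promoters of Nfkb2 and Nfkbie are shown because both genes were separated and each holds a match to the NF-kB consensus, in capitals, in its 250 bases (RefSeq, GRCr8). Those of Nfkb1 and Rela, also separated, hold no match. Those of Bcl3, Nfkbia, Tnip1, Nfkbiz, Cxcl1 and Cxcl2 hold a match, though these genes had overlapping ranges.
Nfkb2 (chr1:255108124-255108373, plus strand): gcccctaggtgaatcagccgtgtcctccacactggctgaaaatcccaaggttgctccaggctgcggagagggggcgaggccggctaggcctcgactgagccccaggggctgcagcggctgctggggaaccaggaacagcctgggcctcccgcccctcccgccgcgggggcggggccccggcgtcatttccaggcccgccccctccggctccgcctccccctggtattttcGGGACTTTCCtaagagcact
Nfkbie (chr9:22947873-22948122, minus strand): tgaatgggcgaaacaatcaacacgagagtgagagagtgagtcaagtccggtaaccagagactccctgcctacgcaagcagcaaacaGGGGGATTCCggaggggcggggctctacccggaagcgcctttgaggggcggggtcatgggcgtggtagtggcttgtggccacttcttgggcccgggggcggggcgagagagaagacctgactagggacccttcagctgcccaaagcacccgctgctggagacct
Of 14 promoters of the list, 8 (57.1%) held such a match on either strand, against 6.41% of all promoters and 1 of the 11 erythroid promoters. The list was made of NF-kB targets and inhibitors, so this share describes the list and says nothing of ACPC-NP.

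Hivep1, Hivep2 and Hivep3, large zinc finger proteins that bind NF-kB-like sites and, for the third, restrain bone formation in mice, were all separated lower and all passed the week 6 test. Hivep3 stood at 23.7, 25.9 and 27.1 CPM around ACPC-NP, 61, 57.6 and 60.5 around CaP and 42.5, 102 and 61.4 around PCL. Hivep1 differed by -0.82 ± 0.23 and Hivep2 by -0.73 ± 0.25. This set of 3 was drawn up after Hivep3 had been seen. Immediate early genes, which cells switch on within minutes of a stimulus and which tissue dissociation is known to raise, lay below 0 in 21 of 23 cases, with a median of -0.49, which was -0.27 without ACPC-NP replicate 2. In the 18-library test 3 of the 23 had an unadjusted p under 0.05 as lower, against 10.9% of all genes. CaP replicate 2 reached the ACPC-NP range in 16 of the 21, PCL replicate 2 in 14 and PCL replicate 3 in 12. Egr3, a zinc finger factor, stood at 9.48, 10.4 and 12.5 CPM around ACPC-NP, 21, 18.1 and 20.3 around CaP and 18.8, 19.6 and 23.4 around PCL. It differed by -0.90 ± 0.39 and the orphan nuclear receptor Nr4a3 by -0.94 ± 0.38, and both passed the week 6 test. Nr4a1, Nr4a2 and Btg2 were separated lower at -0.96, -0.90 and -0.51. Fos, Jun and Egr1 lay at -0.21, -0.69 and -0.52 with overlapping ranges, and Myc was separated higher at 0.57 ± 0.18. Chaperones that handling can also raise had a median of -0.33 (-0.17 without CaP replicate 1), with 5 of 15 separated lower, and the part of handling in these values was not tested.

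Some genes that pass on and damp stress signals were lower. Of 9 phosphatases that switch off MAP kinases, Dusp2, Dusp5 and Dusp16 were separated lower and passed the week 6 test, at -1.07 ± 0.42, -0.62 ± 0.26 and -1.01 ± 0.62. Dusp2 stood at 100.1, 59.5 and 88.5 CPM around ACPC-NP, 186, 109.6 and 153 around CaP and 205, 182 and 219.6 around PCL. Among 23 genes of the MAP kinase cascade, 10 were above 0 and 13 below, and 2 were separated higher and 3 lower. Their median was -0.03, which was -0.05 without ACPC-NP replicate 2 and -0.01 without PCL replicate 3. Mapk8, Map3k1 and Map3k2 passed the week 6 test as lower, at -0.45, -0.51 and -0.50. Mapk14 and Map2k1 lay at 0.20 and 0.14. Sqstm1, an autophagy receptor, and Ulk1, the kinase that starts autophagy, were separated lower at -0.69 ± 0.35 and -0.53 ± 0.16 and passed the week 6 test.

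**Figure D3:**
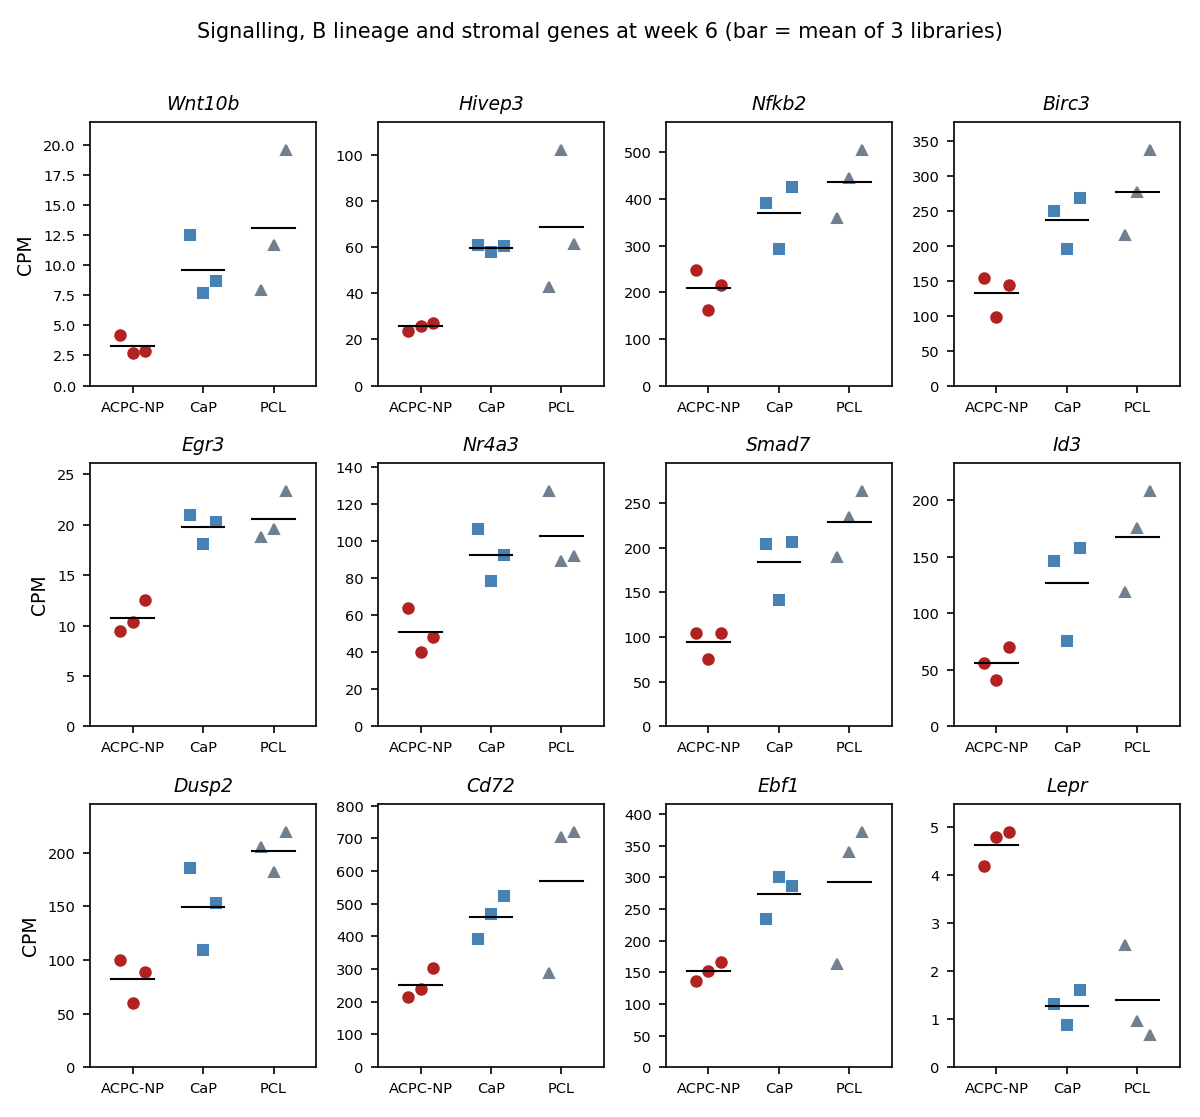
Levels in CPM of 12 signalling, B lineage and stromal genes in each week 6 library (points), with the group mean as a bar. The ACPC-NP points lie below all 6 others for Wnt10b, Hivep3, Nfkb2, Birc3, Egr3, Nr4a3, Smad7, Id3 and Dusp2 and above them for Lepr, and overlap PCL replicate 1 for Cd72 and Ebf1.

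TGF-beta and bone morphogenetic protein signals reach the nucleus through SMAD proteins, which switch on their own inhibitors. Of 31 genes of these pathways, 8 were separated lower and 0 higher, with a median of -0.27, which was -0.16 without ACPC-NP replicate 2. Id3, a direct target of bone morphogenetic proteins that blocks differentiation factors, stood at 55.9, 41.2 and 70.4 CPM around ACPC-NP, 146, 76 and 158 around CaP and 119, 176 and 208 around PCL. Smad7, the inhibitory SMAD induced by TGF-beta, stood at 105, 75.2 and 104 CPM around ACPC-NP, 204, 142 and 206 around CaP and 189, 234 and 264 around PCL. Both passed the week 6 test, at -1.39 ± 0.34 and -1.12 ± 0.36, as did the ubiquitin ligase Smurf2 at -0.32 ± 0.12. Id3 was lower in ACPC-NP libraries than in all 6 others, while its relatives Id1 and Id2 lay at -0.03 and -0.17 and overlapped. The signal carriers Smad2, Smad3 and Smad4 and the receptor Tgfbr1 were separated at -0.16, -0.58, -0.27 and -0.34. The ligands Tgfb1 and Bmp2 differed by -0.14 ± 0.16 and -0.59 ± 0.58 and overlapped. In the Wnt list, 5 of 25 genes were separated lower. Besides Wnt10b they were the signal carrier Ctnnb1 (beta-catenin) at -0.26, its partner Tcf7l2 at -0.57, the scaffold protein Apc at -0.52 and Dvl2, which relays the receptor's signal, at -0.40, and of these Wnt10b and Dvl2 passed the week 6 test. Axin2, the usual readout of Wnt activity, differed by -0.16 ± 0.19 and overlapped. Gli1, the readout of Hedgehog signalling, was separated lower at -1.55 ± 0.49 and did not pass the week 6 test (adjusted p = 0.0668).

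Nuclear regulators were lower by small amounts. Of 26 splicing genes, 12 were separated lower and 0 higher, with a median of -0.31, and 0 passed the week 6 test. Srsf6, a splicing factor, differed by -0.43 ± 0.14 and Clk4, a kinase of such factors, by -0.45 ± 0.16. Of 24 chromatin regulators, 8 were separated lower, and 4 of these passed the week 6 test. They were the histone acetyltransferase Crebbp at -0.59 ± 0.16, the demethylases Kdm5a and Kdm6b at -0.46 ± 0.13 and -0.65 ± 0.35, and Kmt2e at -0.61 ± 0.17. Crebbp stood at 224, 221 and 208 CPM around ACPC-NP, 251, 311 and 310.5 around CaP and 332, 380.1 and 394 around PCL. The clock repressors Per1, Cry1 and Nr1d2 were separated lower and passed the week 6 test, at -0.58 ± 0.23, -0.64 ± 0.15 and -0.77 ± 0.22, while Arntl, Clock and Nr1d1 lay at -0.07, -0.15 and -0.07. The hour of collection is not given in the labels.

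Marrow stroma showed few genes that stood apart. Beside Lepr, Vcam1, the adhesion molecule that stromal cells and macrophages present to blood cells, was separated higher at 1.03 ± 0.36 and Pparg, the regulator of fat cells that macrophages also use, at 0.78 ± 0.18. Cxcl12, the chemokine that retains progenitors, stood at 22.4, 18.4 and 82.3 CPM around ACPC-NP, 25.8, 10.3 and 23.3 around CaP and 38.4, 44.7 and 19.5 around PCL, which overlap. Adipoq, a product of fat cells, differed by 0.35 ± 0.69.

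No gene of the osteoblast list passed either test, and the groups overlapped in all but 1. Of 18 osteoblast and mineralisation genes, 2 were above 0 and 1 was separated, with a median of -0.64. That median was -1.004 when ACPC-NP replicate 3 was left out and -0.37 when CaP replicate 3 was. Bglap (osteocalcin), the marker of mature osteoblasts, stood at 112, 132 and 173 CPM around ACPC-NP, 192, 144 and 437 around CaP and 165, 287 and 226 around PCL. Ibsp, the bone sialoprotein, stood at 19.1, 36 and 57 CPM around ACPC-NP, 39, 34.5 and 193 around CaP and 44.6, 75 and 100.4 around PCL. The groups overlap in both, and the differences of -0.80 ± 0.37 and -1.11 ± 0.60 had adjusted p of 0.244 and 0.316. Runx2 and Sp7, the factors that specify osteoblasts, differed by 0.09 ± 0.12 and -0.80 ± 0.38, Alpl, the phosphatase of mineralising cells, by 0.33 ± 0.23 and Spp1 (osteopontin) by -0.03 ± 0.50. The sign of Runx2 and Spp1 changed when single libraries were left out. The separated gene was Col1a2, whose level of 0.0427 to 0.052 CPM around ACPC-NP against 0.104 to 0.522 in the 6 others is out of proportion to that of its partner chain Col1a1, so its counts are uncertain. Osteoclast genes had a median of 0.20, whose sign rested on a single library, being -0.12 when ACPC-NP replicate 3 was left out and 0.41 when CaP replicate 1 was. Acp5 and Ctsk, the phosphatase and protease of bone resorption, differed by -0.21 ± 0.25 and -0.03 ± 0.53, Nfatc1, the factor that forms osteoclasts, by -0.01 ± 0.10, and the last of these changed sign in several alternatives, as did Ctsk.

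Cartilage and muscle genes were uneven between libraries of the same scaffold. All 12 chondrocyte genes were below 0, with a median of -0.88, but the collagen of cartilage, Col2a1, stood at 11.8, 854 and 699.7 CPM around ACPC-NP, 58.5, 58.9 and 4390 around CaP and 57.6, 62.6 and 2195 around PCL. Replicate 3 of CaP and of PCL and replicates 2 and 3 of ACPC-NP were the high libraries, and the list's median was 0.80 without CaP replicate 3. Matn1, a cartilage matrix protein, was separated lower and passed the week 6 test at -2.39 ± 0.81, from a level of 0.104 to 0.256 CPM around ACPC-NP against 0.712 to 1.74 in the 6 others. All 16 muscle genes were above 0, with a median of 0.97. Acta1, skeletal actin, stood at 40.0, 25.7 and 276 CPM around ACPC-NP, 89, 23 and 52.5 around CaP and 93.2, 65.2 and 46.5 around PCL, high in ACPC-NP replicate 3 only. Without that library the list's median was -0.81. The red cell values did not rest on it, since the erythroid median was 0.74 without ACPC-NP replicate 3 and 0.65 without PCL replicate 1.

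Macrophage markers lay above 0 in 14 of 18 cases, with a median of 0.29 that ran from 0.18 without PCL replicate 2 to 0.47 without PCL replicate 1. Of these genes, 4 had an unadjusted p under 0.05 as higher, against 9.62% of all genes, and 1, Cd163, was separated. Mertk, a receptor kinase with which macrophages take up dying cells, and the complement gene C1qc differed by 0.65 ± 0.26 and 0.60 ± 0.28 and overlapped. M1-type genes had a median of -0.14, M2-type genes of 0.10 and chemokines of -0.41, and without ACPC-NP replicate 3 these were -0.54, -0.11 and -0.81. Without ACPC-NP replicate 2 the M1-type median was -0.006 and that of the chemokines -0.10. Il1b, an inflammatory cytokine, stood at 909.9, 469 and 488 CPM around ACPC-NP, 569.7, 534 and 989.5 around CaP and 949, 664 and 801 around PCL, and its difference of -0.27 ± 0.67 had an adjusted p of 0.856. Arg1, the arginase of alternatively activated macrophages, stood at 4.4, 6.91 and 22.2 CPM around ACPC-NP, 4.97, 1.39 and 3.04 around CaP and 6.17, 2.65 and 8.28 around PCL. The groups overlap, and the difference of 1.39 ± 0.90 had an adjusted p of 0.408 and was 0.41 without ACPC-NP replicate 3. Il6, Il10 and Nos2 differed by -0.05 ± 0.81, -0.09 ± 0.75 and -0.04 ± 0.71, and each changed sign when some single library was left out. The macrophage markers Mrc1 and Cd68 differed by 0.22 ± 0.33 and 0.16 ± 0.29, and the regulatory T cell factor Foxp3 by -0.29 ± 0.26. Vegfa, the signal for vessel growth, differed by -0.54 ± 0.56 and overlapped. Irf4, a factor of plasma cells and activated macrophages, was separated lower at -1.06 ± 0.25, but narrowly. PCL replicate 1, the main exception among B lineage genes, lay just above ACPC-NP replicate 3. Rsad2, an antiviral protein induced by interferon, was separated higher at 1.10 ± 0.31 among 21 interferon genes with a median of 0.25, which was -0.06 without ACPC-NP replicate 2 and 0.44 without ACPC-NP replicate 3.

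Genes that passed the week 6 test were ranked by that test's difference if they were separated and also tested over 18 libraries. The largest differences were in low-count genes for the most part. Beside Lepr, F2rl1 and Car1, the largest higher ones included Epm2a, Nags, Tmem184a, Psrc1, Reep6 and Prss53. The 10 largest lower ones were Zmynd15, Matn1, Astl, Wnt10b, Tfcp2l1, Mybpc2, Apoa1, Pianp, Fbxl22 and Id3, of which Id3 and Mybpc2, a myosin-binding protein of fast muscle, were the ones with a mean above 15 CPM. Mybpc2 stood at 22.8, 13.5 and 22.3 CPM around ACPC-NP, 38.8, 39.5 and 48.3 around CaP and 52.5, 112 and 106 around PCL, so it did not follow the muscle list in ACPC-NP replicate 3. Tfcp2l1, a transcription factor, stood at 1.84, 1.62 and 1.87 CPM around ACPC-NP, 4.42, 4.88 and 5.22 around CaP and 4.82, 7.84 and 9.3 around PCL.

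Set against each scaffold by itself, ACPC-NP gave list medians of the same sign for the lists named next. No gene passed against CaP (0%, 1104 at an unadjusted p under 0.05, with DESeq2 calling 23 and voom 70) or against PCL (0%, 2588, with DESeq2 calling 901 and voom 4042). The 2 comparisons share the ACPC-NP libraries. The erythroid median was 0.57 against CaP and 0.74 against PCL, that of the haem enzymes 0.49 and 0.75, and that of the B cell genes -0.68 and -0.66. The NF-kB genes lay at -0.45 and -0.80 and the HIVEP genes at -0.66 and -0.98. Fech differed by 0.71 ± 0.23 from CaP and 0.85 ± 0.23 from PCL, and Wnt10b by -1.55 ± 0.33 and -1.99 ± 0.33. CaP against PCL gave 0 genes (0%), 304 at an unadjusted p under 0.05 and 0 with DESeq2 and with voom, and its erythroid median was 0.12.

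**Figure D4:**
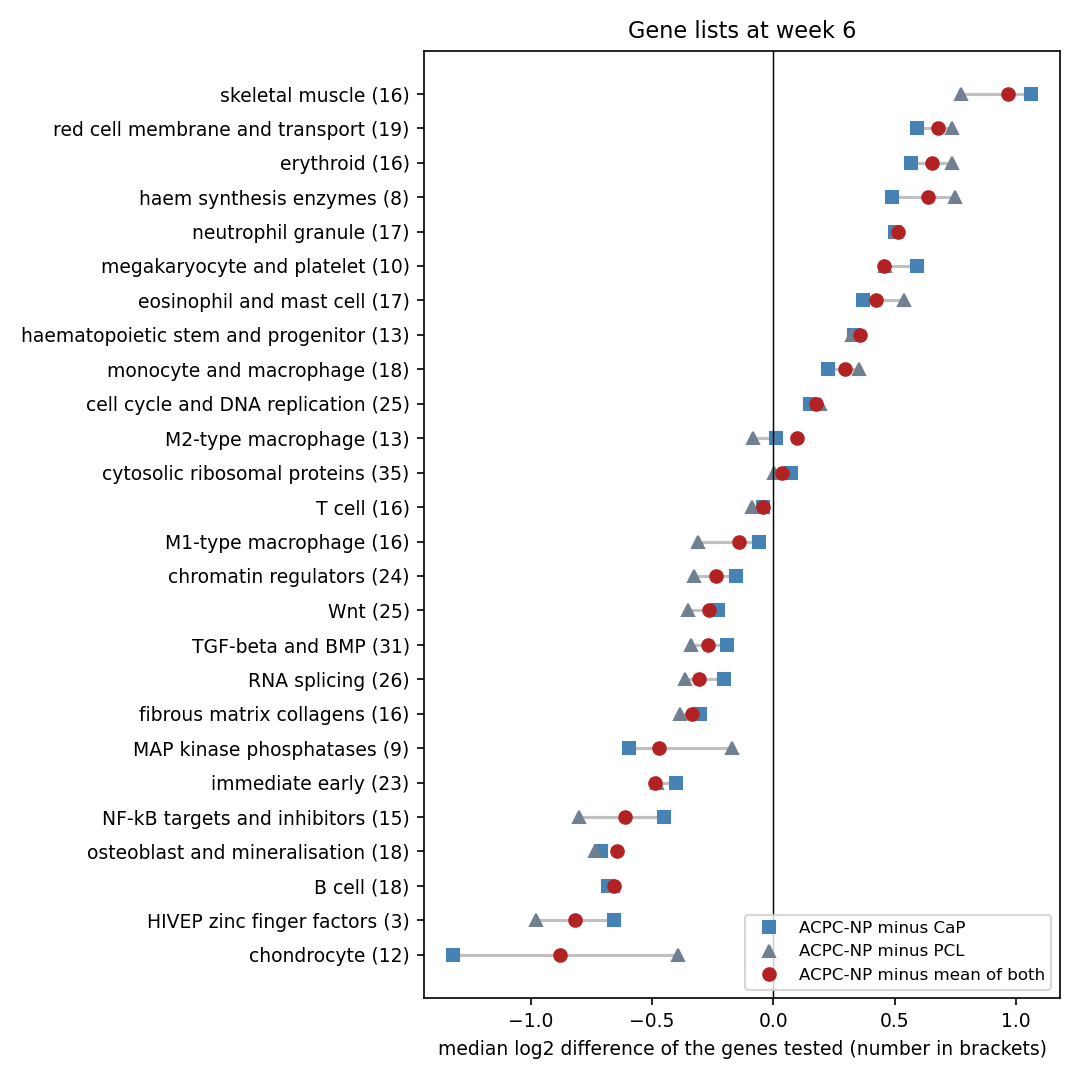
Median log2 difference at week 6 for 26 gene lists, for ACPC-NP minus CaP (squares), minus PCL (triangles) and minus the mean of both (circles), with the number of genes tested in brackets. Red cell lists lie from 0.64 to 0.68 and B cell, NF-kB and HIVEP lists from -0.82 to -0.61 against the mean of both.

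At week 2 the same genes had other values. There, 685 genes (5.8%) were separated higher around ACPC-NP and 300 (2.54%) lower. All 35 red cell genes were below 0 at week 2 and none was separated lower, with an erythroid median of -0.41. NF-kB genes had a week 2 median of 1.29. ACPC-NP week 2 replicate 3 stood apart, with an erythroid score of -0.96 against 0.09 and -0.13 in the other two, where a score is the mean of a list's log2 CPM after centring each gene over the 18 libraries. Without that library 30 of the 35 red cell genes were below 0 at week 2, the erythroid median was -0.15 and that of the NF-kB genes was 0.15. Tested directly, the change of the ACPC-NP difference from week 2 to week 6 passed for 0 genes (0%), the smallest adjusted p being 0.132, and 2273 genes had an unadjusted p under 0.05. DESeq2 called 582 and voom 1684, and without ACPC-NP week 2 replicate 1 the count was 919. Without ACPC-NP week 2 replicate 3 it was 0, with a smallest adjusted p of 0.349 and 1204 genes at an unadjusted p under 0.05. Changes of the red cell genes ran from 0.29 to 1.31, and from 0.281 to 1.195 without ACPC-NP week 2 replicate 3. The genes with the smallest p were Tusc2 (0.87 ± 0.16), RGD1311739 (0.96 ± 0.18) and Plcl2 (0.80 ± 0.16) among those that were higher at week 6 and Ccl4, a chemokine (-5.28 ± 0.97), Pianp (-2.19 ± 0.41) and Tgfbr1 (-0.98 ± 0.19) among those that were lower.

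**Figure D5:**
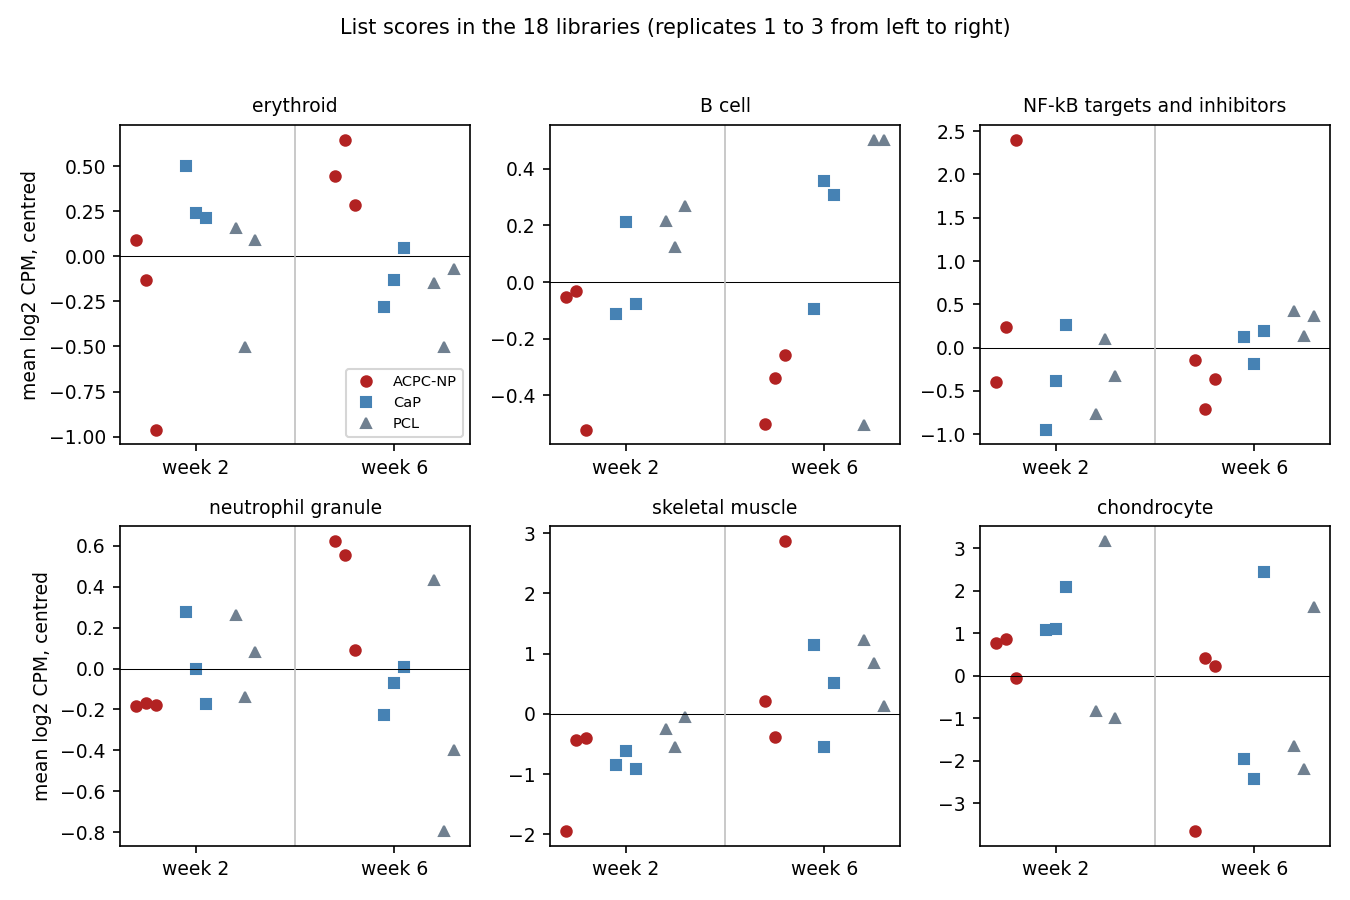
Scores of 6 gene lists (mean log2 CPM after centring each gene over all 18 libraries) in every library at weeks 2 and 6, with replicates 1 to 3 from left to right in each scaffold. At week 6 the 3 ACPC-NP libraries lie above all 6 others for the erythroid list and for the NF-kB list they lie at -0.71, -0.36 and -0.14, with CaP replicate 2 at -0.20 among them. ACPC-NP replicate 3 is high for skeletal muscle.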

How the data were processed

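Counts per gene were deposited for 18 libraries, 3 for each of 3 scaffolds at weeks 2 and 6, and were used as deposited, while a deposited table of normalised values was not used. Per the submitters' processing notes, the tools were bcl2fastq 2.20.0, STAR 2.7.9a and featureCounts (Subread 2.0.1) with build Rnor_6.0. Their settings, strand use included, are not stated there, so antisense and overlapping genes cannot be told apart. Of 17337 genes, 11814 passed edgeR's filter (minimum count 10, minimum total 15) and held 99.98% of counts. The test was edgeR 4.0.16's robust quasi-likelihood F test (R 4.3.3) with TMM scaling, over 6 groups in all 18 libraries (12 residual degrees of freedom), with Benjamini-Hochberg adjustment over all genes tested at 0.05. The contrast was ACPC-NP minus the average of the other groups at week 6. DESeq2 1.42.0, limma 3.58.1 voom, other scaling and filters, the 9 week 6 libraries alone, a replicate block and each library left out were alternatives. CPM uses TMM library sizes, SE is the standard error of a log2 difference from the fit, and scripts were tested on simulated data.

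Libraries and gene lists were chosen with earlier results of these data known, and 4 lists (haem synthesis enzymes, red cell membrane and transport, MAP kinase phosphatases and HIVEP factors) after these values were seen. Text names the 5 genes of smallest p in each direction, 22 genes of bone and immune interest, up to 2 genes of smallest p per list, and for the change between weeks 3 in each direction. Other genes named were chosen after their values were seen. A few genes that this rule names are not reported here. Of the panel of 22 genes, Tnf did not pass the filter and had 0 counts in every week 6 library. None of the 153 pairs of the 18 libraries agreed within sampling noise (chi-square per degree of freedom of 23.6 or more). Promoters came from RefSeq GRCr8, which is not the build of the counts, matched by symbol (14821 of 17337 symbols were in the reference table).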

Additional observations from a re-analysis of the deposited data

How the results depend on the processing

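Counts of genes passing an adjusted p of 0.05 depended most on the tool and on PCL replicate 1. For ACPC-NP against the mean of both others (0 genes), DESeq2 gave 662, voom with quality weights 3462, the 9 week 6 libraries alone 317, the same libraries with CaP and PCL as 1 group 185, and leaving out 1 library gave 0 to 1335. For ACPC-NP against CaP (0 genes), DESeq2 gave 23 and voom 70. For ACPC-NP against PCL (0 genes), DESeq2 gave 901, voom 4042, the week 6 libraries alone 487, and leaving out 1 library 0 to 1787. For CaP against PCL (0 genes), leaving out 1 library gave 0 to 1. For the change between weeks (0 genes), DESeq2 gave 582, voom 1684, and leaving out 1 library 0 to 919. The count of 317 from the week 6 libraries alone ran from 0 to 2540 with 1 library left out. In each range the highest value came without PCL replicate 1, except for the change between weeks, where it came without ACPC-NP week 2 replicate 1. DESeq2 size factors in edgeR, no filter on low counts and leaving out ACPC-NP week 2 replicate 3 called no gene in any of these comparisons other than the fit of 9 libraries, where they were not run. The cause of these differences was not tested.

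Whether replicate numbers pair the libraries is not stated in the labels. Correlations of same-numbered libraries' deviations ran from -0.262 to 0.317, with 4 of 9 over 0.1. They cannot decide it, since differently numbered libraries were not compared. With the replicate block the pooled comparison gave 49 genes, ACPC-NP against PCL 427 and the other comparisons 0, and Ctsk reversed to 0.04 in log2.

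Among single genes, 28 values in 7 genes changed sign, all from small differences. With 1 library left out, log2 differences ran from -0.017 to 0.195 for Runx2, -0.581 to 0.44 for Spp1, -0.634 to 0.433 for Ctsk, -0.076 to 0.11 for Nfatc1, -0.513 to 0.27 for Il6, -0.198 to 0.035 for Il10 and -0.195 to 0.216 for Nos2. With voom, Spp1 was at 0.126 and Nos2 at 0.155. Nfatc1 was at 0.002 with DESeq2, at 0.002 with its size factors in edgeR and at 0.003 without the filter on low counts. Of the list medians, 948 stayed within 1 SD of the ACPC-NP list scores and 38 moved further, but that SD is wide where the ACPC-NP libraries are uneven. Of 58 lists, 19 had a median of the other sign in at least 1 alternative, 9 of them without ACPC-NP replicate 3. Over all alternatives the medians ran from -0.121 to 0.405 for osteoclast genes, -0.752 to 0.446 for endothelial genes, -0.722 to 0.522 for matrix proteases, -0.169 to 0.598 for leptin receptor stroma, -0.807 to 1.439 for skeletal muscle, -1.525 to 0.798 for chondrocyte genes, -0.063 to 0.444 for interferon genes and -0.109 to 0.174 for M2-type genes. The erythroid median stayed between 0.522 and 0.742 in every alternative. Depth limits the low genes, since Epm2a, at a mean of 0.948 CPM around ACPC-NP and 0.316 CPM elsewhere, and Matn1, at 0.195 and 1.10 CPM, rest on few reads.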

Other observations

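Housekeeping and stress lists not described above gave small shifts, and none of their genes passed the 18-library test. All 22 of 22 genes of the respiratory chain and ATP synthase were above 0, with a median log2 difference of 0.20 and 3 separated. Cox4i1, a subunit of cytochrome oxidase, differed by 0.21 ± 0.10. Proteasome genes were above 0 in 22 of 23 cases, with a median of 0.11 (0.07 without ACPC-NP replicate 1), and 3 were separated. Cytosolic ribosomal protein genes had a median of 0.04 and none was separated. That median ran from -0.03 to 0.12 over the alternatives. It was -0.01 without PCL replicate 1, -0.007 without ACPC-NP replicate 3 and 0.12 without PCL replicate 3.

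Of 17 cholesterol synthesis genes, 5 were separated lower and 2 higher. Hmgcs1, which makes the substrate of the rate-limiting step, differed by -0.46 ± 0.13 and passed the week 6 test, and Srebf2, the factor that drives the pathway, was separated at -0.24 ± 0.10. In the unfolded protein response, Ddit3, a factor that promotes cell death under stress, was separated lower at -0.94 ± 0.54, and Sdf2l1, a chaperone partner in the endoplasmic reticulum, was separated higher at 0.48 ± 0.15. Complement genes had a median of 0.41, which was 0.28 without PCL replicate 2. C1qa, made by macrophages, lay at 0.57 ± 0.26. Cd59, which shields cells such as red cells from complement, was separated higher at 0.79 ± 0.20.

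Within PI3K and growth signalling, Eif4ebp1, the repressor of translation that mTOR switches off, was separated higher at 0.40 ± 0.21 and passed the week 6 test. Foxo1, a factor needed for B cell development that insulin signalling excludes from the nucleus, was separated lower at -0.74 ± 0.21 without passing it (adjusted p = 0.0949). For Foxo1, CaP replicate 1 lay almost level with ACPC-NP replicate 3. Sav1, a scaffold of the Hippo kinases, passed the week 6 test as higher at 0.32 ± 0.10, and Lats1, one of those kinases, was separated lower at -0.36 ± 0.11.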
